A study of Mus musculus with 3 samples.

Results

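The cytosolic heat shock genes are described here as 10 genes taken by name from the deposited table, namely Hspa1a, Hspa1b, Hspa8, Hsph1, Dnajb1, Hspb1, Hsp90aa1, Hsp90ab1, Hsf1 and Bag3. All 10 were among the 43472 rows of the table and all 10 were detected, meaning that none of the libraries held fewer than 10 normalized counts. The libraries were 3 biological replicates of 1 condition, MG + PD0325901. Fibroblasts grown from the tail tips of C57BL/6 mice were wounded by a scratch and treated for 5 h with soluble micrograft (MG), an extract of minced mouse skin without its cells, together with PD0325901, which inhibits MEK, the kinase that activates ERK. Every library therefore carried the wound, the MG and the inhibitor, and these could not be told apart. Samples without treatment or with MG alone were not analysed here, and the levels below are levels under this condition and not responses to it.

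Heat shock proteins are chaperones that bind unfolded or partly folded proteins and help them to reach or regain their fold. HSP70 proteins work with HSP40 partners, which deliver substrates and stimulate ATP hydrolysis, and with HSP110 proteins and BAG proteins, which release the nucleotide. HSP90 proteins act later, on kinases, steroid receptors and other near-folded clients, and small heat shock proteins hold unfolded proteins without using ATP. The transcription factor HSF1 raises the inducible genes under heat or other protein-damaging stress by binding heat shock elements, which are alternating GAA and TTC units, and is itself controlled mainly after translation. Some members, such as Hspa8 and Hsp90ab1, are made at high levels without stress, whereas Hspa1a and Hspa1b are known for low levels without stress and strong induction.

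Values are normalized counts, the reads on each gene divided by 1 size factor per library, and the reads themselves were recovered from them. The libraries held between 17244505 and 27037783 reads on genes. All 8 fibroblast markers were detected, but Lum had 5073, 289 and 1164 and Dcn 3661, 1723 and 3659 normalized counts in replicates 1, 2 and 3, both over 2-fold in range. The keratinocyte and endothelial markers reached at most 2.37 and 9.55 normalized counts in any library. The 4 leukocyte markers summed to 4.34, 8.46 and 62.8 normalized counts in replicates 1, 2 and 3, and Laptm5 made up 36.7 of the sum in replicate 3. Of the 4 keratinocyte markers, Krt1 and Krt15 were at 0 in every library. Reads on mitochondrially encoded genes made up 1.32%, 0.858% and 0.610% of the libraries, and the part of any of these differences in the results below was not tested. Of 13154 genes with a mean of at least 10, 10.1% lay over 2-fold away from the remaining libraries in replicate 2, 4.26% in replicate 1 and 3.58% in replicate 3. In bulk RNA, fewer cells expressing a gene and less RNA per cell cannot be told apart.

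Promoter sequences from RefSeq (GRCm38.p6), running from 250 bases before the start to 50 after it, were found for 6 of the 10 genes and not for Hspa8, Hsp90aa1, Hsp90ab1 or Hsf1. They were searched for the 8-base heat shock element pairs GAANNTTC and TTCNNGAA, each of which reads the same on both strands, and which can overlap by 3 bases. GAANNTTC was found in 7.86% and TTCNNGAA in 8.52% of all windows. Hspa1a, Hspa1b, Hspb1, Hsph1 and Bag3 held at least 1 of them, and the windows of Dnajb1 held none. Among all 32851 promoter windows of this length, 15.1% held at least 1. Stretches with matches are shown because Hspa1a and Hspa1b carry theirs in almost the same sequence, and the others for comparison. The GAA and TTC units of each match are in capitals. Whether a match goes with the spread of a gene between libraries was not tested.
Hspa1a (minus strand, chr17:34972157-34972276): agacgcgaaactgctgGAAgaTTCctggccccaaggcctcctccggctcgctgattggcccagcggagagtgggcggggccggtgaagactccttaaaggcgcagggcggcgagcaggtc
Hspa1b (minus strand, chr17:34959239-34959358): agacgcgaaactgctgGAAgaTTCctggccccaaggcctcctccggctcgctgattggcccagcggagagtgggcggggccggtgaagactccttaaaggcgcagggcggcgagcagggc
Hspb1 (plus strand, chr5:135887789-135887848): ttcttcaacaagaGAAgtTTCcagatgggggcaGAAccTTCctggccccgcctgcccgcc
Hsph1 (minus strand, chr5:149636287-149636314): taaaatgctgcagaTTCtgGAAagTTCt
Bag3 (plus strand, chr7:128523605-128523632): aagttctctggatgggaccaGAAgtTTC

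The match of Hspa1a and that of Hspa1b lay at the same place, from 104 to 97 bases before the start, and 119 of the 120 printed bases were identical between these neighbouring genes. Hspb1 had 2 matches before its start. In Hsph1 and Bag3 the printed matches lay just after the annotated start. That of Hsph1 was a run of 3 units (TTC, GAA and TTC, each 2 bases from the next), in which both pairs overlap, and a run of 3 units on either strand was held by 0.603% of all windows. RefSeq gives Hsph1 2 starts. The run lay from 37 to 49 bases after the start used for the stretch shown and from 16 to 28 after the other, and a further TTCNNGAA, outside that stretch, from 33 to 26 and from 54 to 47 bases before them. A match describes these letters only and says nothing of HSF1 binding in these cells.

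The inducible HSP70 genes were the most variable of the set between libraries. Hspa1a and Hspa1b encode nearly the same protein, the stress-inducible HSP70, from neighbouring genes without introns on chromosome 17 (34969190 to 34972156 and 34956436 to 34959238, GRCm38). Hspa1a had 163, 92.3 and 58.1 normalized counts in replicates 1, 2 and 3, on 188, 131 and 49 reads, with a mean of 105 ± 53.6 (SD, n = 3). Hspa1b had 688, 424 and 281 normalized counts, with a mean of 464 ± 206 (SD, n = 3). Replicate 1 was the highest and replicate 3 the lowest for both genes, a range of 2.81-fold for Hspa1a and 2.45-fold for Hspa1b. For the library with fewest reads, counting error came to 14.3% for Hspa1a and 6.50% for Hspa1b. The ratio of Hspa1a to Hspa1b stayed close, at 23.7%, 21.8% and 20.7% of normalized counts.

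The constitutive HSP70 gene, Hspa8, was far more even. Hspa8 encodes HSC70, which folds new proteins and uncoats clathrin vesicles, and lies on chromosome 9 (40800984 to 40810087). It had 13867, 16777 and 16086 normalized counts and averaged 15577 ± 1521 (SD, n = 3), with replicate 1 the lowest. Its range was 1.21-fold.

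The HSP110 and HSP40 partners of HSP70 behaved differently from each other. Hsph1 (chromosome 5, 149614287 to 149636376), an HSP110 that exchanges the nucleotide of HSP70, had 2518, 2620 and 3952 normalized counts and a mean of 3030 ± 800 (SD, n = 3). Replicate 3 stood 1.51-fold above replicate 2 and 1.57-fold above replicate 1, which lay close together. Dnajb1 (chromosome 8, 83608193 to 83612653), the HSP40 best known as a partner of inducible HSP70, had 1157, 1087 and 1185 normalized counts and a mean of 1143 ± 50.5 (SD, n = 3). Its range of 1.09-fold was the narrowest of the 10 genes, and only 3.88% of all 12204 detected genes had a smaller SD on the log2 scale.

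Of the HSP90 genes, the constitutive Hsp90ab1 exceeded the inducible Hsp90aa1 in every library, in normalized counts and per kb of exon. Hsp90ab1 (chromosome 17, 45567775 to 45573271) had 27717, 38606 and 34191 normalized counts and a mean of 33505 ± 5477 (SD, n = 3), which placed it at rank 53 among all genes. Hsp90aa1 (chromosome 12, 110690605 to 110702728) had 10199, 12045 and 8185 normalized counts and a mean of 10143 ± 1930 (SD, n = 3). Replicate 2 was the highest for both genes. The lowest was replicate 1 for Hsp90ab1 and replicate 3 for Hsp90aa1, so the order of these libraries was not shared.

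Hspb1 and Bag3 were well expressed. Hspb1 (chromosome 5, 135887919 to 135889563) encodes HSP25, the mouse form of HSP27, a small heat shock protein that also binds actin. It had 7954, 4790 and 6883 normalized counts and a mean of 6542 ± 1609 (SD, n = 3). Replicate 2 was the lowest, and without it the remaining libraries differed by 1.16-fold. Bag3 (chromosome 7, 128523616 to 128546981) encodes a cochaperone that links HSP70 and small heat shock proteins to autophagy. It had 5410, 4154 and 4458 normalized counts and a mean of 4674 ± 655 (SD, n = 3), with a range of 1.30-fold.

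Hsf1, the regulator of the family (chromosome 15, 76477422 to 76501913), had 609, 757 and 727 normalized counts and a mean of 697 ± 78.2 (SD, n = 3). Its range was 1.24-fold, and its highest and lowest libraries were those of Hspa8 and Hsp90ab1. The transcript level does not measure the activity of the protein.

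**Figure D1:**
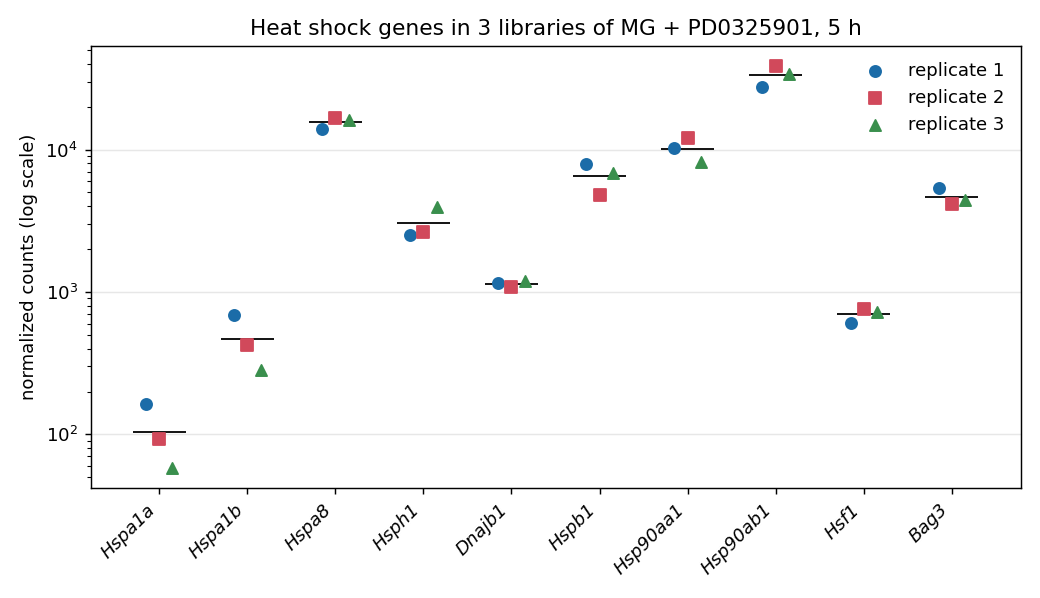
Normalized counts (log scale) of the 10 cytosolic heat shock genes in replicates 1, 2 and 3 of MG + PD0325901, with a bar at each mean. Hsp90ab1 was the highest with a mean of 33505 and Hspa1a the lowest with 105, and the points of Hspa1a and Hspa1b lie farthest apart.

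Set side by side, the members did not rise and fall together. Replicate 1 was the highest library for Hspa1a, Hspa1b, Hspb1 and Bag3 and the lowest for Hspa8, Hsph1, Hsp90ab1 and Hsf1. Replicate 2 was the highest for Hspa8, Hsp90aa1, Hsp90ab1 and Hsf1, and replicate 3 for Hsph1 and Dnajb1. Among all detected genes, replicate 1 was the highest for 31.5%, replicate 2 for 40.6% and replicate 3 for 27.9%. With TMM scaling, which is edgeR's trimmed mean of M-values, each gene kept its highest and lowest library. With Gapdh, Actb and Rpl13a as the scale, all genes of replicates 1, 2 and 3 moved by -0.058, 0.12 and -0.064 on the log2 scale. The lowest library of Bag3 then became replicate 3, and the highest and lowest of Dnajb1 became replicates 2 and 1. With equal totals the highest library of Dnajb1 became replicate 1.

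**Figure D2:**
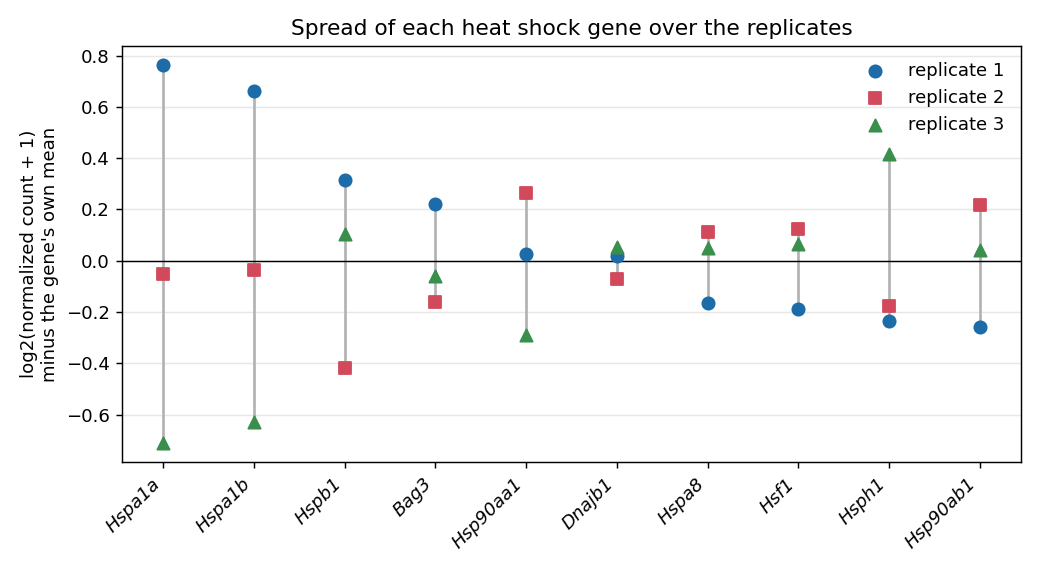
The log2 value of each gene in each library, less the gene's own mean over the 3 libraries, with genes ordered by replicate 1. Hspa1a and Hspa1b, with 0.76 and 0.66 in replicate 1 and -0.71 and -0.63 in replicate 3, span the widest range, while Hspa8, Hsf1, Hsph1 and Hsp90ab1 lie below 0 in replicate 1.

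The spread of the members was set beside that of all genes. The highest library was more than 2-fold above the lowest, after adding 1 to each value, for 2 of the 10 genes, Hspa1a and Hspa1b, against 21.6% of the 12204 detected genes. The share among the members was therefore near the background. Without replicate 1, and likewise without replicate 3, no member had such a range, and without replicate 2 the count stayed at 2. A range over 1.5-fold was seen for 4 members, Hspa1a, Hspa1b, Hsph1 and Hspb1, against 48.5% of detected genes. No member stood more than 2-fold from both other libraries in any replicate, against 4.26%, 10.1% and 3.58% of genes in replicates 1, 2 and 3. At 1.5-fold, Hspa1a and Hspa1b stood apart in replicate 1, against 11.8% of genes, Hspa1a, Hspa1b and Hsph1 in replicate 3, against 8.82%, and no member in replicate 2, against 22.9%. The SD of log2 values was 0.74 for Hspa1a and 0.65 for Hspa1b, and 89.6% and 85.9% of detected genes had a smaller one. The median SD was 0.26 over the members and 0.30 over all detected genes. The median log2 ratio of a library to the mean of the others was 0.02, -0.15 and 0.06 over the members in replicates 1, 2 and 3, and -0.05, 0.01 and -0.03 over all detected genes.

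Two-sided exact binomial tests, with Benjamini-Hochberg adjustment over all genes tested and a threshold of 0.05, asked whether pairs of libraries differed by more than counting error. They compare libraries and not conditions, and treat reads as independent molecules. The test calls more readily where reads are many, and the median of the mean normalized counts was 3852 over the members against 511 over all detected genes, so the shares of calls below are not for genes of like depth. Between replicates 1 and 2, 8 of 10 members were called, against 68.4% of 14771 genes, with 4 higher in replicate 1 (32.7% of genes) and 4 in replicate 2 (35.7%). Between replicates 1 and 3, 9 members were called, against 51.1% of 14316 genes, with 5 higher in replicate 1 (25.1%) and 4 in replicate 3 (26.1%). Between replicates 2 and 3, 8 members were called, against 62.0% of 14344 genes, with 5 higher in replicate 2 (32.0%) and 3 in replicate 3 (30.0%). The members that the exact binomial test did not call were Dnajb1 in every pair (adjusted p = 0.131, 0.687 and 0.0568 for replicates 1 and 2, 1 and 3, and 2 and 3), Hsph1 between replicates 1 and 2 (adjusted p = 0.148) and Hsf1 between replicates 2 and 3 (adjusted p = 0.521). Hspa1a, with the fewest reads, was called in each pair by the exact binomial test, with an adjusted p of 0.0104 between replicates 2 and 3. Where a difference of more than 2-fold was required as well, Hspa1a and Hspa1b remained between replicates 1 and 3, against 8.78% of genes, and no member between replicates 1 and 2, against 19.8%, or between replicates 2 and 3, against 16.1%.

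Ratios within a library do not depend on the size factor. Per kb of exon, Hspa1b stood at 7.61%, 3.88% and 2.68% of Hspa8 in replicates 1, 2 and 3 and averaged 4.72% ± 2.57 (SD, n = 3). Hspa1a stood at 1.71%, 0.798% and 0.523% of Hspa8. In each library the inducible HSP70 genes thus lay far below the constitutive gene. Their ratios to Hspa8 ranged 2.84-fold and 3.26-fold between libraries, more than the 2.45-fold and 2.81-fold of the levels, as Hspa8 was lowest where they were highest. Hsp90aa1 stood at 28.1%, 23.8% and 18.3% of Hsp90ab1 per kb of exon, averaging 23.4% ± 4.92 (SD, n = 3) over a 1.54-fold range. For each of these ratios replicate 1 was the highest and replicate 3 the lowest. The share of reads on mitochondrially encoded genes, given above, was also the highest in replicate 1 and the lowest in replicate 3, and its part was not tested.

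**Figure D3:**
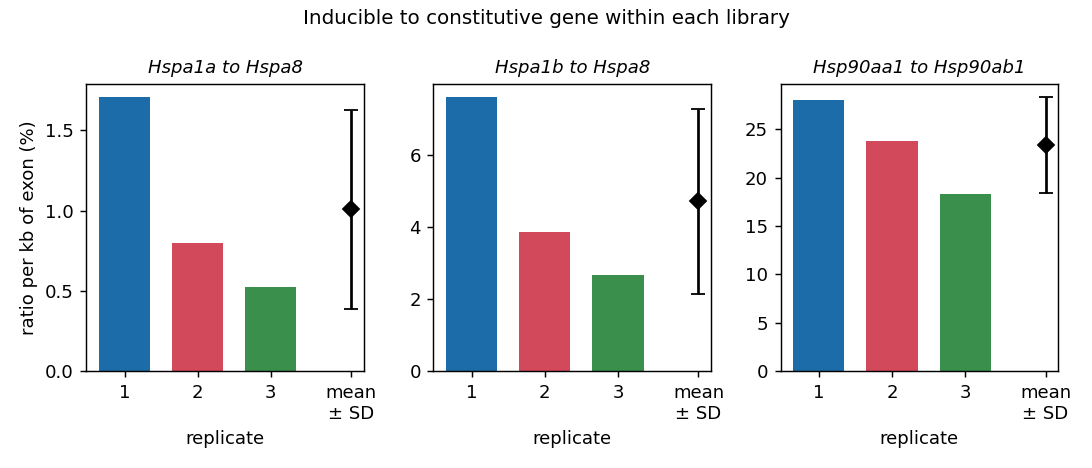
Level per kb of exon of Hspa1a and Hspa1b as a percentage of Hspa8, and of Hsp90aa1 as a percentage of Hsp90ab1, in each library (bars) with the mean ± SD over the 3 libraries (diamond). Each ratio was highest in replicate 1 and lowest in replicate 3, from 7.61% to 2.68% for Hspa1b.

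Levels of different genes can be compared only per length. Per kb of the union of exons, the order by mean was Hsp90ab1 with 11172 ± 1826 normalized counts per kb (SD, n = 3), Hspb1 with 6346 ± 1561, Hspa8 with 3622 ± 354, Hsp90aa1 with 2580 ± 491, Bag3 with 1824 ± 256, Hsph1 with 417 ± 110, Dnajb1 with 357 ± 15.8, Hspa1b with 166 ± 73.6, Hsf1 with 98.2 (85.7 to 107 over the libraries) and Hspa1a with 35.2 ± 18.1. The ranges over libraries overlapped for the neighbours Hsp90aa1 and Bag3, Hsph1 and Dnajb1, and Hspa1b and Hsf1, so these were not separated on this scale. All other neighbours were separate in range. Per kb of the longest coding transcript, those pairs were separate in range, while Hspb1 with 7035 ± 1730 normalized counts per kb overlapped Hspa8 with 6507 ± 635. Hsf1, whose exon union is much longer than its longest coding transcript, had 331 ± 37.2 on that scale and lay above Hspa1b, with 166 ± 73.6, instead of below it.

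This order depended on how much of each gene could take a read. The authors kept reads that mapped to 1 place, and several heat shock genes have near-identical copies. For each gene, the 50-base windows of its longest coding transcript, as long as the reads, were searched in the transcripts of all other genes of the GENCODE M21 annotation. Hsph1, Hsf1 and Bag3 were unique in 100% of windows, Dnajb1 in 99.6% and Hsp90ab1 in 95.5%. Only 25.2% of the windows of Hspa8 were unique, since 70.0% recurred in the processed pseudogene Gm15459. For Hsp90aa1 41.5% were unique, with 51.5% recurring in the pseudogene Gm12346, and for Hspb1 48.4%, with 51.6% recurring in Hsp25-ps1. Hspa1a and Hspa1b shared 1716 windows with each other and some with Gm20481, Gm10501 and Hspa1l, which together left 33.7% and 37.7% unique. Windows found in Gm20481, which overlaps Hspa1a, counted as shared although they can lie at the same place in the genome.

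Few counts were assigned to the pseudogenes of Hspa8, Hsp90aa1 and Hspb1 for which values were found. Gm15459 had 3.47, 12.7 and 11.9 normalized counts in replicates 1, 2 and 3, Gm12346 had 4.34, 12.7 and 3.56, and Hsp25-ps1 had 56.4, 33.1 and 54.5. Only the genes sharing the most windows were looked up. Among them, Gm6210 and Gm7232, in which 35.1% and 24.5% of the windows of Hspa8 recurred, had no values in the deposited data. Values were found for 4 of the 13 genes that share windows with Hspa8, 4 for Hsp90aa1 and 2 for Hspb1. The highest among these was 0.122% of the mean of Hspa8, 0.125% of that of Hsp90aa1 and 0.863% of that of Hspb1. Reads that fit a gene and its copy equally well were not kept, so low counts on the copies do not show how much they were expressed. Other genes that share windows with Hspa1a were not small beside it. Gm10501, which shares 7.95% of its windows, had 23.4, 33.1 and 34.4 normalized counts and Hspa1l, which shares as many, 6.95, 11.3 and 19.0, both lowest in replicate 1, where Hspa1a was highest. On 2225 of its 2967 bases Hspa1a is further overlapped by the span of Gm20481 on the opposite strand, with any introns of Gm20481 included. Only 16.2% of the windows of Hspa1a recurred in transcripts of Gm20481, which was listed at 0 in every library. Whether the counting used strand is not given in the sources used here. How reads were assigned where exons of Gm20481 overlap Hspa1a is therefore not known, and the lower level of Hspa1a than of Hspa1b is uncertain.

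Per kb of unique windows, Hspa8 became the highest gene with 26401 ± 2577 normalized counts per kb (SD, n = 3), ahead of Hspb1 with 15357 ± 3778 and Hsp90ab1 with 14197 ± 2321, whose ranges overlapped. Counts on exons outside the longest coding transcript were included without their length, so this scale can overstate a level. For Hspa8 that transcript held 2394 of 4301 exon bases. Windows were matched exactly and to annotated transcripts only. On this scale Hspa1b, with 447 ± 199, overlapped Dnajb1 with 390 ± 17.2, and Hspa1a remained the lowest with 106 ± 54.6. The mean ratio of Hsp90aa1 to Hsp90ab1 was 53.9% in place of 23.4%, and that of Hspa1b to Hspa8 1.75% in place of 4.72%. Differences between libraries within a gene do not change with its length.

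**Figure D4:**
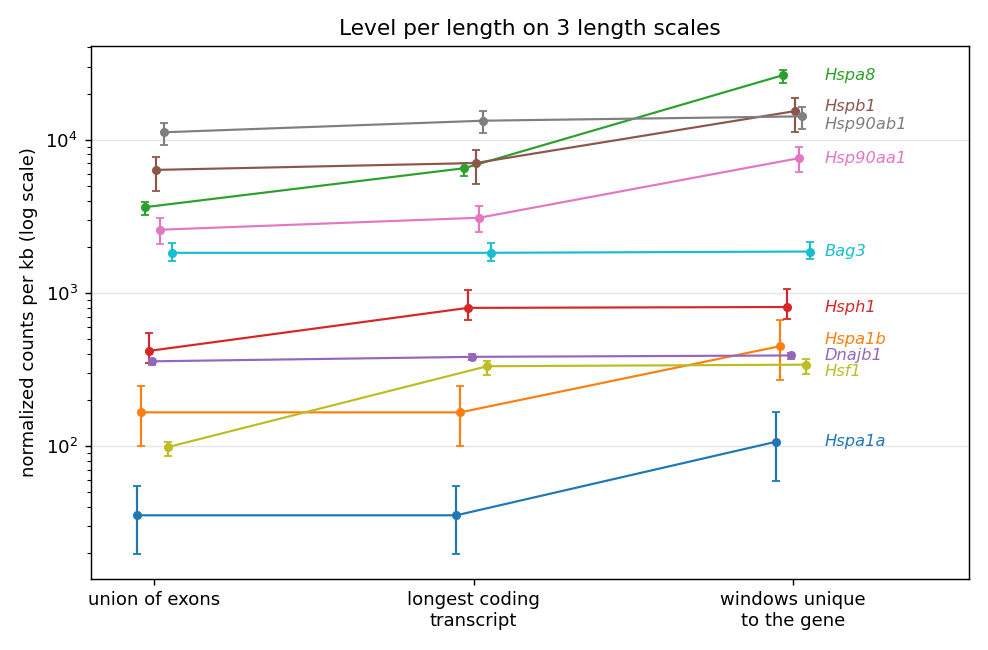
Normalized counts per kb (log scale) of the 10 genes by union of exons, by longest coding transcript and by 50-base windows found in no other gene, with points at the mean and bars from the lowest to the highest library. Hspa8 moved from 3622 to 26401 per kb and passed Hsp90ab1 and Hspb1, while Bag3 hardly moved.

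Other chaperone genes were taken in whole lists, chosen with earlier results of these data known. Few of them had a range over 2-fold, seen for 21.6% of all detected genes, but their spread differed from list to list. The median level ran from 438 in the heat shock factor list to 7306 in the CCT list, against 511 for all detected genes. The shares below are therefore not for genes of like level. A range over 1.5-fold, seen for 48.5% of all detected genes, was found for 3 of 13 other HSP70, HSP110 and HSP40 genes, 7 of 15 cochaperones, 3 of 6 small heat shock genes, 2 of 3 detected genes of the heat shock factor list, 3 of 8 CCT genes, 1 of 6 mitochondrial chaperones and 4 of 16 ER folding genes. The median SD of all detected genes, 0.30, was about that of the cochaperones and below that of the small heat shock genes, 0.34, and the heat shock factor list, 0.41. All 13 other HSP70, HSP110 and HSP40 genes were detected and none had a range over 2-fold, with a median SD of log2 values of 0.15. The highest means among them were 6841 for Hspa4, an HSP110 relative, 3953 for Dnaja2, 2794 for Dnajb4 and 2308 for Dnajb6. Dnaja4 had the smallest range of them, with 721, 725 and 734 normalized counts. Each of the 15 cochaperones was detected and none passed 2-fold, with a median SD of 0.30. They were led by Cdc37, which brings kinases to HSP90, with a mean of 5524, followed by Stip1, which joins HSP70 to HSP90, with 4212.

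The 6 other small heat shock genes were all detected and included Cryab, alpha B-crystallin, with 13661, 12822 and 11348 normalized counts, and Hspb8, a partner of Bag3, with 4402, 4316 and 4058. Hspb3 alone of them had a range over 2-fold, with 66.0, 16.2 and 40.3 normalized counts. Of the 4 genes tied to heat shock factors, Hsbp1, whose product binds HSF1, had 4582, 2339 and 3550 normalized counts, Hsf2 505, 390 and 420, and Hsf4 142, 84.6 and 137, all highest in replicate 1 and lowest in replicate 2. That was not the order of Hsf1, which was lowest in replicate 1. Among all detected genes, replicate 1 was the highest for 31.5% and replicate 2 the lowest for 37.3%. Hsf5 was not detected in every library and reached at most 11.3.

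The chaperones of other compartments and complexes followed other orders. All 8 genes of the CCT chaperonin, which folds actin and tubulin, were detected, none had a range over 2-fold, and replicate 1 was the lowest library for 7 of them, as it was for Hspa8 and Hsp90ab1. Among all detected genes replicate 1 was the lowest for 34.5%. Cct6a had the widest range of the 8, with 2719, 5268 and 4391 normalized counts. Of the 16 ER folding genes, 10 were highest in replicate 1, against 31.5% of all detected genes. None of the 16 had a range over 2-fold, against 21.6%. Hsp90b1, the HSP90 of the ER, had 41626, 27036 and 32166 normalized counts, highest where cytosolic Hsp90ab1 was lowest, whereas Hspa5, the HSP70 of the ER, was even with 26793, 27912 and 26583. The 6 mitochondrial chaperones were detected with no range over 2-fold, and Hspa9 had 11742, 12341 and 12046. These orders are descriptions of 3 libraries and were not tested.

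**Figure D5:**
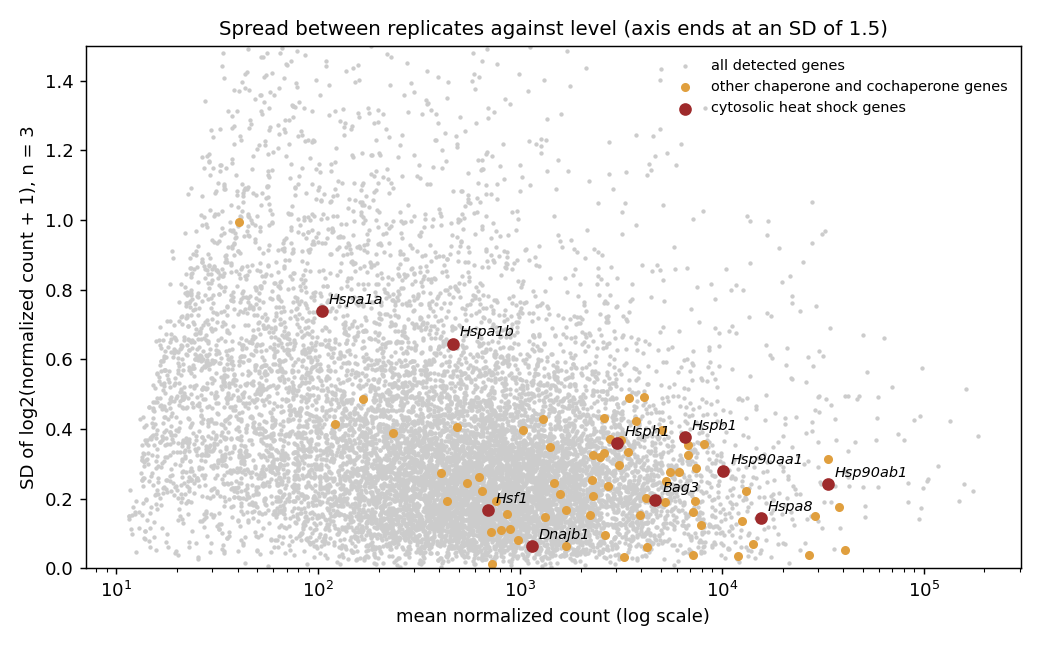
SD of log2(normalized count + 1) over the 3 libraries against mean normalized count (log scale) for all 12204 detected genes (grey, of which 141 lie beyond the axis end of 1.5), 67 other chaperone and cochaperone genes (orange) and the 10 cytosolic heat shock genes (red). Hspa1a and Hspa1b lie above the other members at 0.74 and 0.65, and Dnajb1 lies lowest at 0.06.

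The genes whose pattern was most like that of Hspa1a, the member with the widest range, were sought among 9982 genes outside the set with a mean of at least 100. Likeness was the Euclidean distance over the 3 libraries between log2 values less each gene's mean, and 10 genes lay within 0.2. The nearest were Vegfc with 252, 151 and 97.2 normalized counts at a distance of 0.08, Eng with 1184, 608 and 430, Trim12c with 352, 182 and 129, Lsm5 with 391, 235 and 159, and Hmgb2 with 636, 401 and 260 at 0.14. Hspa1b lay at 0.13. With 3 libraries such nearness is a description only.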

How the data were processed

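The 3 libraries of MG + PD0325901 at 5 h were taken from the deposited table. The authors prepared stranded mRNA libraries, sequenced them as single-end reads of 50 bp and used TopHat 2.0.13 (mm10, up to 2 mismatches) for alignment. Uniquely placed reads scoring 10 or more were then counted per gene by HT-Seq 0.5.3p3. The deposited signal is the count divided by a size factor per library (DESeq). Values in 3 more columns, of no sample listed, were left out. All values of each library (100%) were whole multiples of that of 1 read, within 0.01, and the recovered reads summed to 22540518, 27037783 and 17244505.

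Means are of normalized counts, and 1 was added before taking log2. Pairs of libraries were compared by exact binomial tests where a gene had 10 or more reads in that pair. The series' design text calls the samples biological replicates, and the sample labels say replicate only, with no culture or animal named. Steps were tested on simulated data. Lengths and positions came from GENCODE M21 (GRCm38) and promoters from RefSeq. TMM factors came from edgeR 4.0.16 (R 4.3.3), and other steps used Python 3.11.15, scipy 1.17.1, pandas 2.3.3 and numpy 2.4.6.

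The members and lists were chosen with earlier results of these data known. All members were named, and of each other list at most the 4 of highest mean and those with a range over 2-fold, with the 5 genes nearest in pattern to the member of widest range. Dnaja4, Cct6a, Hspa5, the copies and Gm20481 were named after their values were seen. Alternatives were other scalings, pseudocounts, fold limits, minimums and lengths, and each replicate left out.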

Additional observations from a re-analysis of the deposited data

How the results depend on the processing

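No paired analysis was possible because all libraries belong to the same condition. The count of members with a range over 2-fold was 2 and became 4 at a fold limit of 1.5. Leaving out each replicate gave between 0 and 2, with 0 without replicate 1 or replicate 3. Members apart from both other libraries numbered 0 at 2-fold, against 4.26%, 10.1% and 3.58% of genes in replicates 1, 2 and 3. At 1.5-fold they numbered 2 in replicate 1, against 11.8%, 0 in replicate 2, against 22.9%, and 3 in replicate 3, against 8.82%. Requiring a 2-fold difference as well lowered the calls between libraries, by construction, to 2 members between replicates 1 and 3 and to 0 in each other pair. With Gapdh, Actb and Rpl13a as the scale, the median log2 ratio of the members in replicate 2 was 0.0326 in place of -0.15. Unique windows as the length, chosen after seeing the data, gave mean ratios of 1.75% for Hspa1b to Hspa8, 2.17% for Hspa1a and Hspa1b together and 53.9% for Hsp90aa1 to Hsp90ab1, through the lengths alone. Mean levels were recomputed with 3 other scalings and without each replicate, and none of the 60 values moved by 1 SD or more. With 3 libraries, leaving 1 out cannot move a mean by 1 SD. The other scalings were set to the geometric mean of the deposited size factors, which holds the means nearly fixed. This check therefore does not measure how stable the levels are. Depth limited Hspa1a most, with 49 reads in replicate 3, and intervals of counts cover counting error only.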
